A study of Mus musculus with 12 samples.

Results

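The genes described here are 10 regulators and products of early blood formation: the transcription factors Tal1, Lmo2, Gata1, Gata2, Runx1, Gfi1b and Klf1, the receptor gene Kit, and the embryonic globin genes Hbb-bh1 and Hba-x. They were chosen by name, and each was found at 1 of the 40039 merged loci of the deposited transcript models, through the structure of its exons and introns. All 10 loci passed the filter on low counts, those of Lmo2 and the globin genes through their day 6 libraries, and 9 of them held 1 named gene. The locus of Klf1 also holds its neighbour Syce2 and is counted apart. The libraries came from mouse embryonic stem cells of C57BL/6J origin in 4 groups of 3: Notch1-/- at day 6, Notch1-/- at day 0, WT at day 6 and WT at day 0. Notch1 is a cell-surface receptor for signals between neighbouring cells. Day 0 cells were undifferentiated and were kept with LIF at 1000 U/ml, on mouse embryonic fibroblasts or on gelatin; which of these was used for which library is not given in the labels. Day 6 samples were embryoid bodies, started as hanging drops of 1000 cells under a cardiac differentiation protocol, so blood was not the lineage aimed at. The labels name neither the part of Notch1 that was deleted nor the number of clones, and no tissue or cell was sorted.

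Tal1, Lmo2 and a GATA factor act in 1 complex on DNA, which turns on blood and, earlier, endothelial genes. Gata2 and Runx1 act in the progenitors that arise from endothelium. Gata1 and Gfi1b act in the red cell and platelet programmes, and Klf1 drives the red cell programme. The first red cells of the mouse form in the yolk sac and carry embryonic globins, of which Hbb-bh1 (beta-like) and Hba-x (zeta, alpha-like) are 2. Kit, the receptor for stem cell factor, marks blood progenitors, and it is also made by germ cells and some other embryonic cells.

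The embryonic globin genes have close relatives, and the first 90 coding bases show how far they can be told apart by 100-base reads. The sequences are from the GENCODE M21 annotation of GRCm38, read 5′ to 3′ from the start codon. Capitals mark bases that differ from Hbb-bh1 in the beta-like genes and from Hba-x in Hba-a1.
Hbb-bh1: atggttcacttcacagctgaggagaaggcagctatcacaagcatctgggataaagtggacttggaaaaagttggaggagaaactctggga
Hbb-y: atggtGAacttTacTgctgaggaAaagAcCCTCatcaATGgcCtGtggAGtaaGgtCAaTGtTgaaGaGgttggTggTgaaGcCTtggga
Hbb-bs: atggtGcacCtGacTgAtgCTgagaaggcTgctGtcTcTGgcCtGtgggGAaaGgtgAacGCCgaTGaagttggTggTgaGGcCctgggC
Hba-x: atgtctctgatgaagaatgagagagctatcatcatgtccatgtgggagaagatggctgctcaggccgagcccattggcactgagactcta
Hba-a1: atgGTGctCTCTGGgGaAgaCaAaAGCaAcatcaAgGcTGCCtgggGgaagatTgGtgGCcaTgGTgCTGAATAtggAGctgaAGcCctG
Over the 444 coding bases Hbb-bh1 was 76.4% identical to Hbb-y, the other main embryonic beta-like globin, and 74.1% identical to the adult gene Hbb-bs. Over 429 coding bases Hba-x was 62.0% identical to the adult gene Hba-a1. The longest run of identical bases that the transcripts shared with those of Hbb-bh1 was 26 bases in Hbb-y and 22 in Hbb-bs. It was 30 bases in Hbb-bh2, another beta-like gene, whose sequence is not shown. Between Hba-a1 and Hba-x it was 18 bases, and all these runs are far shorter than a read.

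The promoters of 3 genes with a GATA motif are shown because GATA factors are among the genes measured. Each is the 250 bases before the gene's start in RefSeq on GRCm38.p6, 5′ to 3′ on the gene's strand, with GATAA or its reverse complement TTATC in capitals.
Hba-x promoter (chr11:32276350-32276599, plus strand): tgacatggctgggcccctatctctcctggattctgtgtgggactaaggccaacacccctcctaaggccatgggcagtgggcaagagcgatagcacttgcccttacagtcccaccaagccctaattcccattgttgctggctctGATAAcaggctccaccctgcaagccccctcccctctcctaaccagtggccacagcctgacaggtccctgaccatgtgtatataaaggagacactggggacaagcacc
Tal1 promoter (chr4:115056176-115056425, plus strand): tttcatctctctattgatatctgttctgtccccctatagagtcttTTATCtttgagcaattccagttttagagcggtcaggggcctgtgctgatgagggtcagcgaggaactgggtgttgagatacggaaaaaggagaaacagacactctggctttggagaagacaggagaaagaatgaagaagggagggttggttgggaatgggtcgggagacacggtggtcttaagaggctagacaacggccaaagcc
Gfi1b promoter (chr2:28621983-28622232, minus strand): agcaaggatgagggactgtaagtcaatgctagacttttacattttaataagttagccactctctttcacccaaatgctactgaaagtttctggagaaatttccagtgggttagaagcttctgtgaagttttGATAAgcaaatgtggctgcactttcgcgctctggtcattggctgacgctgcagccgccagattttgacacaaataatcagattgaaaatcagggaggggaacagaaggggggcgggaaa
Both strands were searched. The motif was in at least 1 window of 4 of the 8 member genes with a promoter sequence (the other one is Klf1). It was in 22.6% of the 32817 promoter windows of this length. The first is a share of genes, some with more than 1 window, and the second a share of windows, so they cannot be compared. The second Tal1 window and all windows of Kit, Gata2, Runx1 and Gata1 lacked the motif. The window of Gfi1b also held CTG followed after 9 bases by GATAA, the composite motif described for the Tal1 complex, which includes the GATA motif. It was in 0.756% of all windows. These matches are letters in a window and not measured binding sites.

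The libraries held from 100637179 to 134662426 counts. Levels are given as CPM, read counts normalised to the TMM-scaled library size. Changes are log2 fold changes with their standard error (SE) from edgeR's quasi-likelihood test over 23991 loci, called at a Benjamini-Hochberg adjusted p under 0.05. The series' design text speaks of biological replicates, but no label tells whether each library had a culture of its own. The p-values thus reflect the scatter of these libraries alone, part of which may be technical. In whole embryoid bodies, fewer cells of a type and less RNA per cell cannot be told apart. Notch1 itself had 6.80, 4.90 and 4.95 CPM in Notch1-/- and 38.0, 30.8 and 31.1 CPM in WT libraries at day 6. At day 0 it had 3.80, 3.87 and 4.59 CPM in Notch1-/- and 61.6, 24.7 and 34.0 CPM in WT libraries, so all Notch1-/- libraries lay below all WT libraries. Loci are given in mm9 coordinates.

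**Figure D1:**
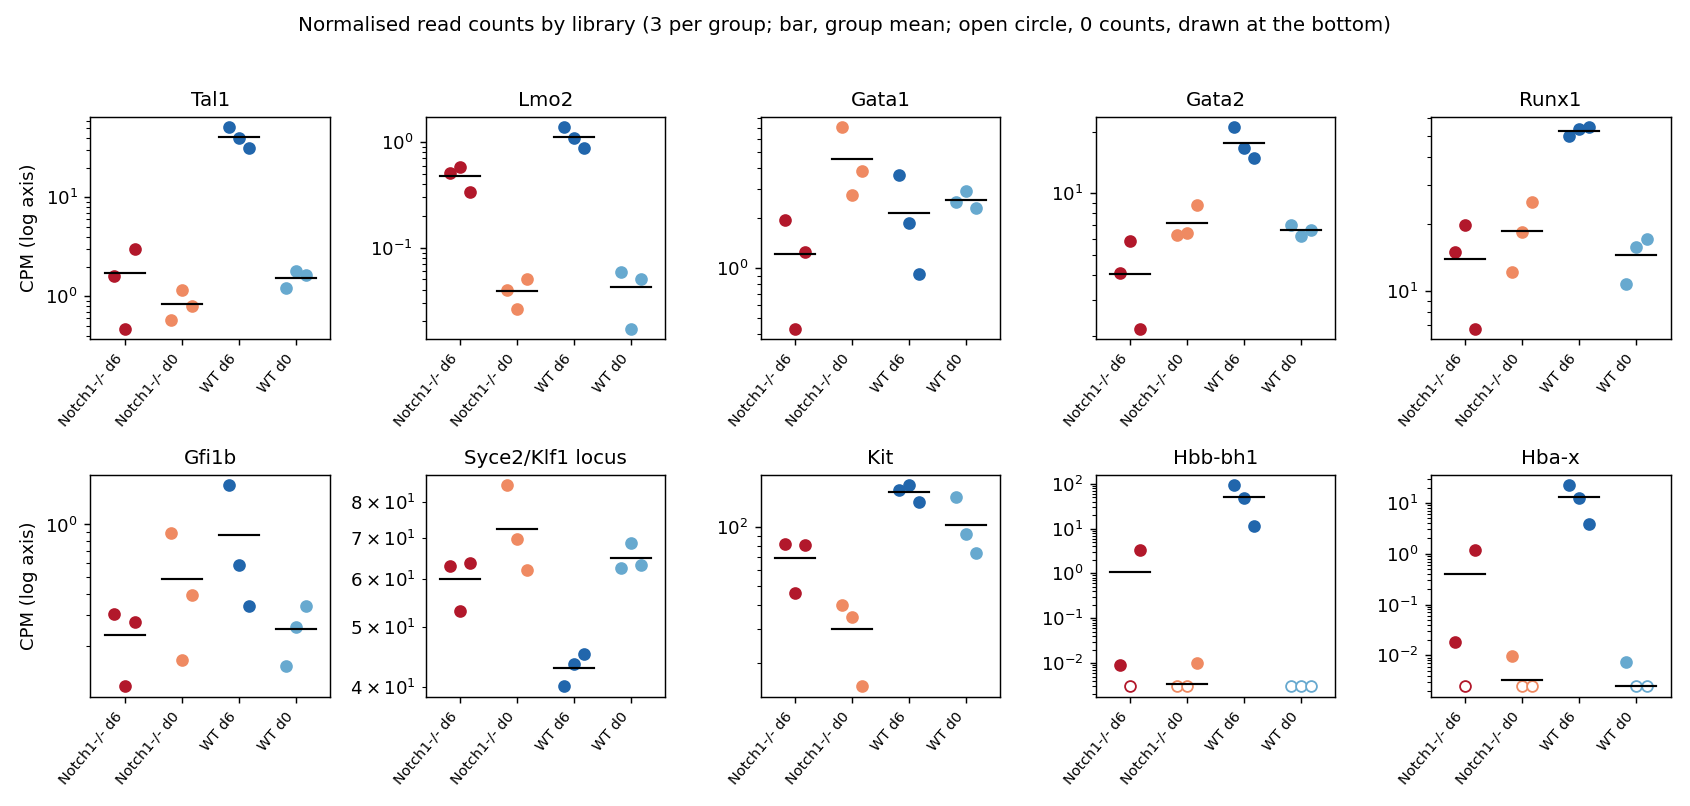
Normalised read counts (CPM, log axis) of the 10 loci in each of the 12 libraries, with 3 libraries per group and a bar at the group mean; open circles are libraries with 0 counts. Tal1, Gata2, Runx1 and both globin genes are highest in the 3 WT day 6 libraries, and 1 Notch1-/- day 6 library holds nearly all globin counts of its group.

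Of the 9 genes at a locus of their own, 7 were lower in Notch1-/- than in WT embryoid bodies and 0 were higher; over all loci 14.4% were called lower and 13.7% higher in this comparison, 28.1% in either direction. The 7 were Tal1, Lmo2, Gata2, Runx1, Kit, Hbb-bh1 and Hba-x, while Gata1 and Gfi1b were not called. Lmo2 and the globin genes passed the low-count filter only through day 6 libraries, and the globin genes only with WT libraries, so their direction was set by the filter in part and the counts over all 9 are a description. Of the 7 genes that reached the filter's level in every day 6 library, 5 were lower in Notch1-/- cells. From day 0 to day 6, 4 of the 9 were called higher and 2 lower in Notch1-/- cells, against 17.2% and 18.7% of all loci (35.9% in either direction). In WT cells 7 of the 9 were called higher and 0 lower, against 18.4% and 24.7% of all loci (43.1% in either direction). Among the 6 genes that reached the filter's level in every library, Lmo2 and the globin genes left aside, 1 was higher and 2 lower at day 6 in Notch1-/- cells, and 4 were higher and 0 lower in WT cells. At day 0 the genotypes differed in 1 of the 9, Kit, which was lower in Notch1-/- cells, against 5.86% of loci called lower, 3.71% called higher and 9.56% in either direction. The change over 6 days differed between genotypes for 3 of the 9, Tal1, Gata2 and Runx1, all in the negative direction, against 4.92% of all loci in that direction, 6.36% in the other and 11.3% in either. The comparisons within and between genotypes share libraries and do not count as independent. The direction of calls over all loci depended on scaling: in Notch1-/- cells 47.8% of the called loci were higher at day 6, and 37.1% under upper quartile scaling.

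**Figure D2:**
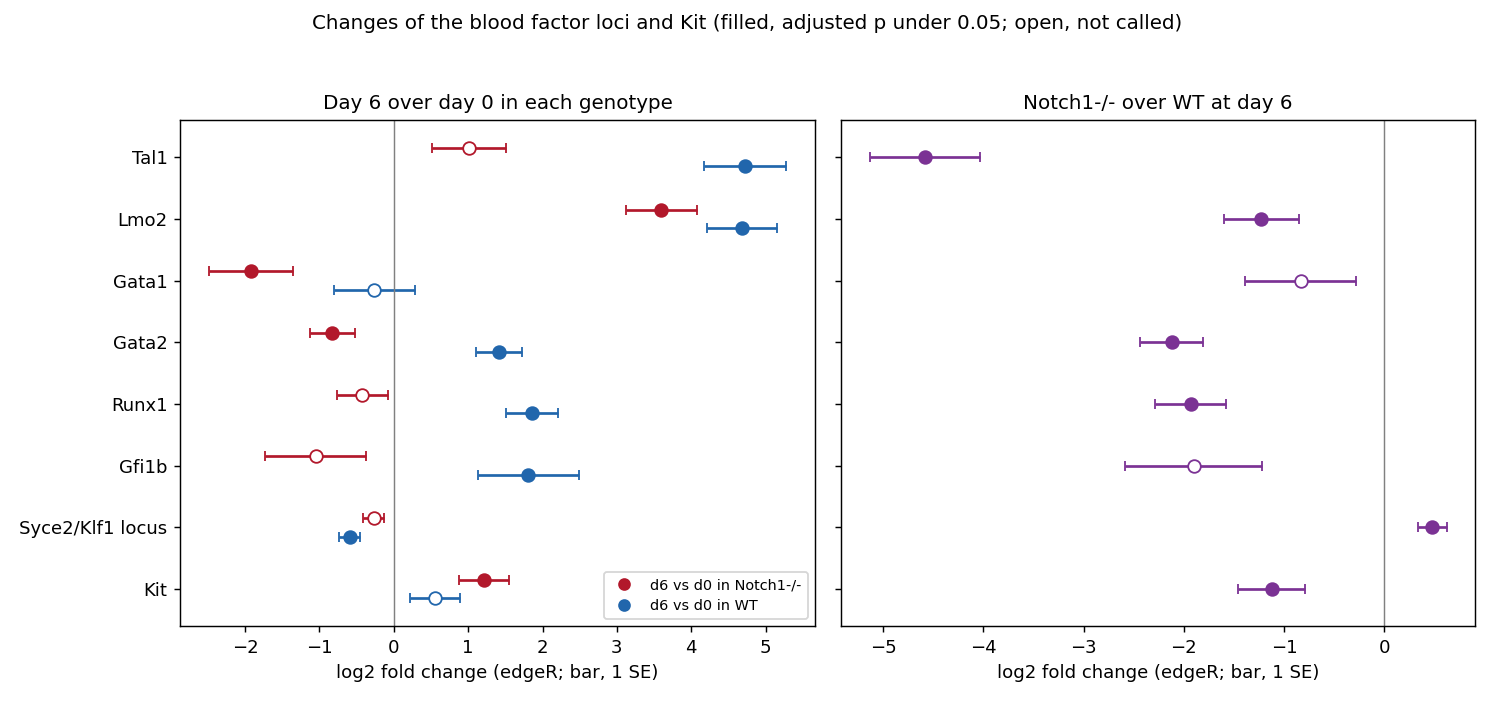
Log2 fold changes with 1 SE of the 7 factor loci and Kit: day 6 over day 0 in Notch1-/- and WT cells on the left, and Notch1-/- over WT at day 6 on the right. Filled points are called at an adjusted p under 0.05, and the points of Tal1, Gata2 and Runx1 lie apart between the genotypes on the left.

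Tal1 (XLOC_024541, chr4:114729357-114744416, plus strand, 9517 exon bases), the basic helix-loop-helix factor without which no blood forms in the mouse, showed the largest genotype difference among the factors at day 6. Its level was 1.59, 0.468 and 3.04 CPM in Notch1-/- libraries at day 6, against 0.575, 1.15 and 0.802 CPM at day 0. In WT libraries it was 51.3, 39.8 and 31.5 CPM at day 6, against 1.2, 1.81 and 1.64 CPM at day 0. The WT day 6 libraries thus stood at least 10 times above every other library, while the days overlapped in Notch1-/- cells. The difference between genotypes at day 6 was -4.58 (SE 0.55, adjusted p = 9.35e-05, edgeR). The change from day 0 was 1.01 (SE 0.50, adjusted p = 0.131) in Notch1-/- cells and 4.72 (SE 0.55, adjusted p = 4.33e-05) in WT cells. These changes differed by -3.71 (SE 0.71, adjusted p = 0.00576). Without library 2, the lowest of the Notch1-/- day 6 libraries, the change in Notch1-/- cells was called (1.45, adjusted p = 0.0108). At day 0 the Notch1-/- libraries lay just below the WT libraries, a difference that was not called (-0.87, SE 0.50, adjusted p = 0.270).

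Lmo2 (XLOC_019690, chr2:103798152-103822101, plus strand), the adaptor that bridges Tal1 and the GATA factor, was the factor that rose in both genotypes. Its counts were 57, 75 and 45 in Notch1-/- libraries at day 6, against 4, 3 and 5 at day 0. In WT libraries they were 167, 130 and 102 at day 6, against 8, 2 and 6 at day 0. No day 6 library of either genotype overlapped with day 0, and the Notch1-/- libraries lay below the WT libraries at day 6. Lmo2 rose by 3.6 (SE 0.47, adjusted p = 0.00014, edgeR) in Notch1-/- cells and by 4.68 (SE 0.47, adjusted p = 1.43e-05) in WT cells, and at day 6 it differed between genotypes by -1.23 (SE 0.38, adjusted p = 0.0289). The day 6 call was lost without Notch1-/- library 1 or 3 or WT library 1 or 2, with an adjusted p of up to 0.130. The difference of the changes was not called on the counts (-1.08, SE 0.67, adjusted p = 0.339).

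The counts of Lmo2 may hold only a part of its reads, as 65.16% of its exon length is shared with a locus on the opposite strand; this was not tested. The deposited FPKM values, which are normalised for length and depth, were 11.8 to 19.1 times the length- and depth-scaled counts at Lmo2, against 0.640 to 4.17 times at the other loci of a single member gene with over 3 counts in the group and 8.93 to 9.34 times at the merged locus of Klf1, where 12.17% is shared. By FPKM Lmo2 had 3.06, 4.01 and 2.14 in Notch1-/- libraries and 10.4, 10.1 and 10.4 in WT libraries at day 6. At day 0 it had 0.249, 0.302 and 0.512 FPKM in Notch1-/- and 0.391, 0.141 and 0.281 FPKM in WT libraries. The WT day 6 libraries differed far less from each other in FPKM than in counts. On log2(FPKM + 1) the difference of the changes was called (-1.59, SE 0.24, adjusted p = 0.00183, limma), unlike on the counts.

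Gata2 (XLOC_029423, chr6:88143885-88157027, plus strand), the GATA factor of stem and progenitor cells, had opposite changes in the genotypes. It had 4.08, 5.86 and 2.17 CPM in Notch1-/- libraries at day 6, against 6.29, 6.43 and 8.80 CPM at day 0. The WT libraries had 21.1, 16.6 and 15.0 CPM at day 6, against 7.01, 6.18 and 6.60 CPM at day 0. Days did not overlap in either genotype. Gata2 fell by 0.83 (SE 0.30, adjusted p = 0.0483, edgeR) in Notch1-/- cells, a call lost under 14 of 21 alternative settings (adjusted p up to 0.152), and rose by 1.41 (SE 0.30, adjusted p = 0.00264) in WT cells. The changes differed by -2.24 (SE 0.43, adjusted p = 0.00599), and at day 6 the genotypes differed by -2.12 (SE 0.31, adjusted p = 0.000389).

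Runx1 (XLOC_014274, chr16:92601711-92826311, minus strand), the runt-domain factor required for blood cells to leave the endothelium, rose in WT cells. It had 15.0, 19.9 and 6.72 CPM in Notch1-/- libraries at day 6, against 12.2, 18.5 and 25.1 CPM at day 0. In WT libraries it had 49.99, 53.8 and 54.7 CPM at day 6, against 10.7, 15.8 and 17.1 CPM at day 0. The WT day 6 libraries were within 1.09-fold of each other, the closest agreement of any member in CPM (in FPKM those of Lmo2 were closer), and they lay above all other libraries. The change was -0.42 in Notch1-/- cells (adjusted p = 0.364, edgeR) and 1.86 in WT cells (SE 0.35, adjusted p = 0.00123). The changes differed by -2.28 (SE 0.49, adjusted p = 0.0111), and the day 6 difference was -1.93 (SE 0.36, adjusted p = 0.00171). The calls for Tal1, Gata2 and Runx1 at day 6 and in the difference of the changes held under all settings tried.

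Some blood-cell and platelet genes were present at day 0, above all in Notch1-/- libraries 2 and 3. Ptprc, the pan-leukocyte antigen CD45, had 0.317, 1.21 and 1.87 CPM in Notch1-/- and 0.0439, 0.222 and 0.135 CPM in WT libraries 1, 2 and 3 at day 0. The platelet chemokine gene Ppbp had 0.258, 13.1 and 9.24 CPM in Notch1-/- and 1.35, 1.24 and 4.91 CPM in WT libraries. Pf4, another platelet chemokine gene, had 0, 2.22 and 2.19 CPM in Notch1-/- and 0, 0.0170 and 0.0169 CPM in WT libraries. The WT libraries thus held Ppbp reads nearly without Pf4. The macrophage gene Adgre1 had 0.00992, 3.68 and 4.44 CPM in Notch1-/- and 0.0220, 0.0341 and 0.0338 CPM in WT libraries. Notch1-/- libraries 2 and 3 were the highest for each of these genes, while Notch1-/- library 1 lay below every WT library for Ppbp and Adgre1. The summed level of 18 feeder fibroblast markers was 512, 1412 and 2141 CPM in Notch1-/- day 0 libraries 1, 2 and 3, and 980 to 3248 CPM in WT day 0 libraries. At day 6 it was 122 to 157 CPM in Notch1-/- and 1208 to 1689 CPM in WT libraries. From day 0 to day 6 in WT cells 3 of these 18 genes rose and 9 fell, against 18.4% and 24.7% of all loci. In Notch1-/- cells 0 rose and 16 fell, against 17.2% and 18.7% of all loci. The day 6 sum is not taken as an amount of feeder cells, and their part in it was not tested. Of the 3 tested macrophage markers 2 were higher in Notch1-/- cells at day 0, against 3.71% of all loci. The part that blood cells or feeders may have in the day 0 levels of Runx1, Gata2 and the other members was not tested.

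Gata1 (XLOC_039031, chrX:7526668-7553700, minus strand), the GATA factor of red cells and platelets, was the only factor at a locus of its own whose mean WT day 6 level in CPM did not exceed that at day 0; in FPKM the means were 0.739 at day 6 and 0.714 at day 0. It had 1.94, 0.429 and 1.24 CPM in Notch1-/- libraries at day 6, against 7.06, 2.74 and 3.87 CPM at day 0. The WT libraries had 3.66, 1.87 and 0.915 CPM at day 6, against 2.5, 2.93 and 2.30 CPM at day 0. It was lower at day 6 without overlap in Notch1-/- cells (-1.92, SE 0.57, adjusted p = 0.0191, edgeR), while the days overlapped in WT cells (-0.26, SE 0.55, adjusted p = 0.727). The fall lost its call in 3 of 21 settings, without Notch1-/- library 2 or 3 of day 6 or library 1 of day 0 (adjusted p up to 0.0613). Neither the day 6 difference between genotypes (-0.84, SE 0.56, adjusted p = 0.287) nor the difference of the changes (-1.66, SE 0.78, adjusted p = 0.201) was called. Much of this locus is not the known gene: in 1 of its 3 models the last exon spans 10.6 kb, and 25.9% of the exon length is shared with a locus on the other strand. Whether the counts stem from Gata1 messenger RNA or from this extension cannot be told from counts per locus.

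Gfi1b (XLOC_020493, chr2:28464890-28477502, minus strand), a repressor that red cells and platelets need, was the factor with the fewest counts after Lmo2. It had 34, 15 and 37 counts in Notch1-/- libraries at day 6, against 90, 19 and 39 at day 0. In WT libraries it had 204, 69 and 40 counts at day 6, against 21, 30 and 40 at day 0. Library 1 alone held most of the WT day 6 counts. In CPM the WT day 6 libraries (1.69, 0.584 and 0.342) lay above the WT day 0 libraries (0.154, 0.256 and 0.338), the nearest pair only just. The change in WT cells was 1.81 (SE 0.68, adjusted p = 0.0469, edgeR), and 0.91 without library 1 of day 6 (adjusted p = 0.309). In all, 12 of 21 settings lost this call. The day 6 difference was -1.90 (SE 0.68, adjusted p = 0.0541) and was called under several settings, down to an adjusted p = 0.0157 with DESeq2. In Notch1-/- cells the change was -1.05 (adjusted p = 0.250).

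Klf1, the red cell factor that switches on beta-globin genes, cannot be given a value of its own. Its locus (XLOC_034650, chr8:87396010-87429290, plus strand) merges it with Syce2, a meiosis gene, in 11 models, of which, by their exon signatures, 1 is Klf1 alone and 1 joins both genes. The merged locus had 63.0, 53.2 and 63.5 CPM in Notch1-/- and 40.1, 43.7 and 45.2 CPM in WT libraries at day 6. At day 0 it had 85.3, 69.7 and 62.0 CPM in Notch1-/- and 62.5, 68.6 and 63.1 CPM in WT libraries. The locus as a whole was higher in Notch1-/- embryoid bodies (0.48, SE 0.14, adjusted p = 0.0234, edgeR) and lower at day 6 than at day 0 in WT cells (-0.59, SE 0.14, adjusted p = 0.00491), and no direction follows for Klf1. The call between genotypes was lost without Notch1-/- library 1 or 3 or without any of the 3 WT libraries of day 6, with an adjusted p of up to 0.107.

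**Figure D3:**
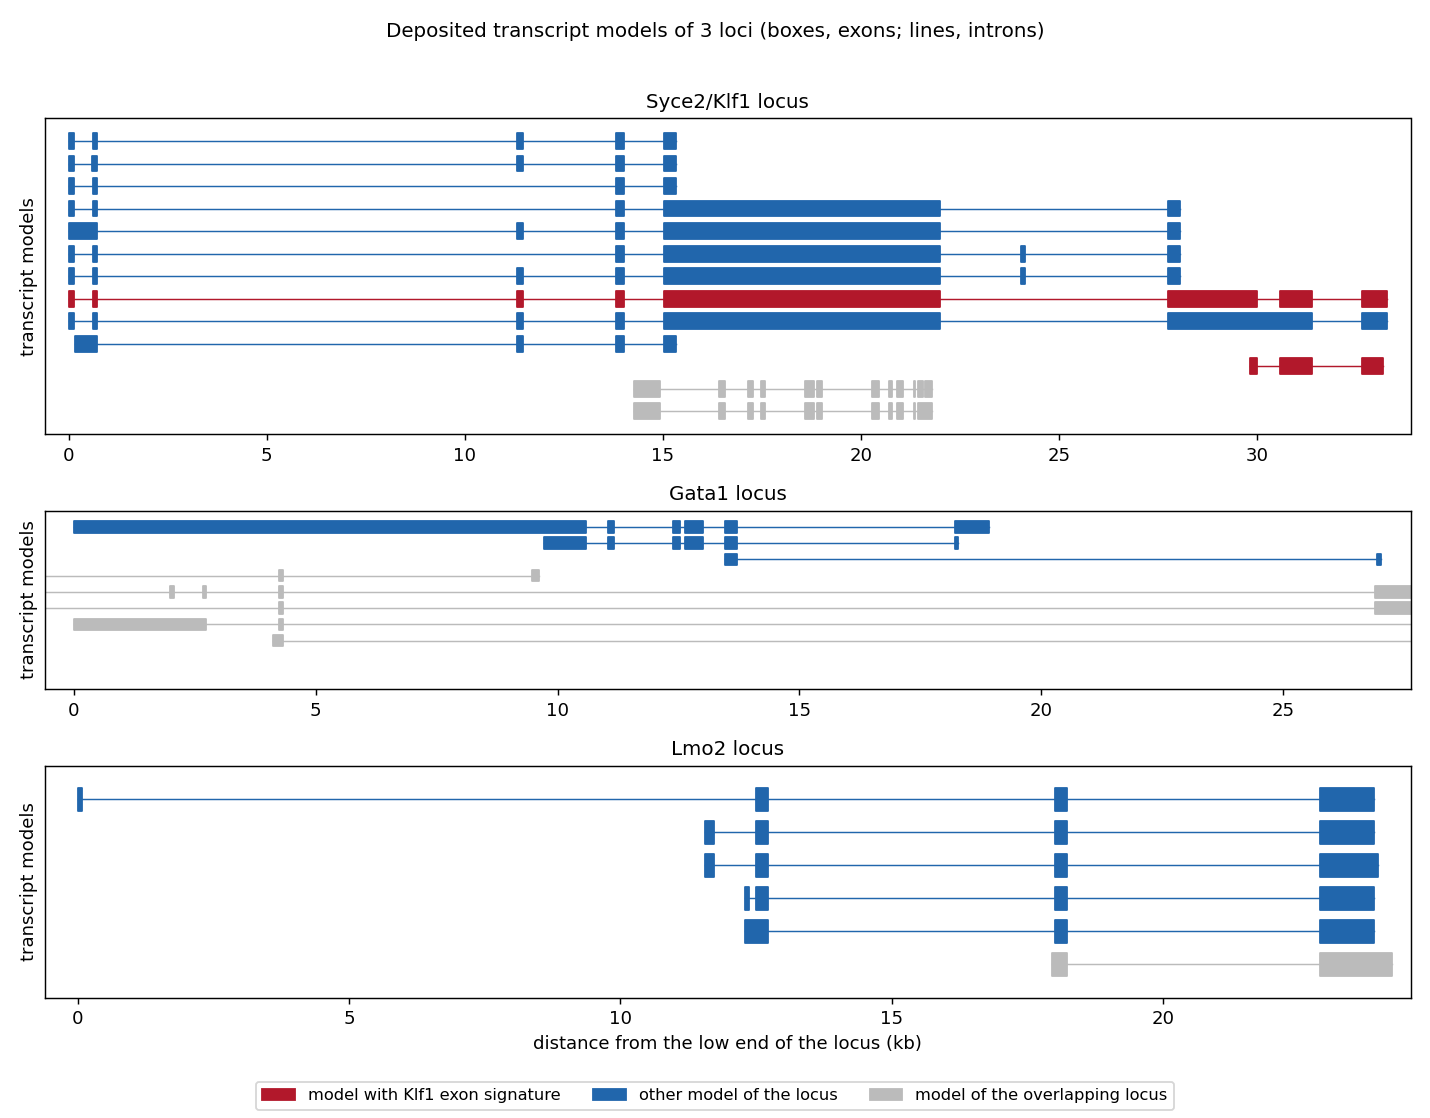
Deposited transcript models of the loci that hold Klf1, Gata1 and Lmo2, drawn as exons (boxes) and introns (lines) against the distance from the low end of the locus in kb, with models of the locus that shares most exon length in grey. Klf1 is at the right end of a locus that starts in Syce2, 1 Gata1 model has an exon of 10.6 kb, and the grey model covers the last exons of Lmo2.

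Kit (XLOC_026864, chr5:75971012-76052746, plus strand) differed between the genotypes on both days. It had 81.6, 45.8 and 81.0 CPM in Notch1-/- libraries at day 6, against 39.9, 34.6 and 15.2 CPM at day 0. The WT libraries had 155, 164 and 135 CPM at day 6, against 143, 92.2 and 73.9 CPM at day 0. The genotypes did not overlap on either day, while the days overlapped in WT cells. Kit was lower in Notch1-/- cells by -1.12 at day 6 (SE 0.34, adjusted p = 0.0254, edgeR) and by -1.78 at day 0 (SE 0.34, adjusted p = 0.0066). It rose by 1.22 (SE 0.34, adjusted p = 0.0141) in Notch1-/- cells, and the WT change was 0.56 (SE 0.34, adjusted p = 0.198). The difference of the changes was 0.66 (SE 0.47, adjusted p = 0.415), and the level was lower in Notch1-/- cells on both days. The day 6 call was lost without Notch1-/- library 2 or without WT library 1 or 2, with an adjusted p of up to 0.1001. At day 0, 4 of 13 naive pluripotency and germ cell markers were higher and 0 lower in Notch1-/- cells, against 3.71% and 5.86% of all loci. Their part in the level of Kit was not tested.

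Kitl, the ligand of Kit, rose in both genotypes. It had 34.6, 18.1 and 14.6 CPM in Notch1-/- libraries at day 6, against 7.72, 8.16 and 12.3 CPM at day 0. WT libraries had 45.1, 52.2 and 50.3 CPM at day 6, against 6.52, 7.77 and 5.89 CPM at day 0. At day 6 the Notch1-/- libraries all lay below the WT libraries (-1.13, SE 0.29, adjusted p = 0.0116, edgeR), as for the receptor.

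Hbb-bh1 (XLOC_033365, chr7:110990152-110991676, minus strand) was all but confined to day 6, with 1 count in the 6 day 0 libraries together. It had 1, 0 and 439 counts in Notch1-/- libraries 1, 2 and 3 at day 6, against 0, 0 and 1 at day 0. In WT libraries 1, 2 and 3 it had 11457, 5802 and 1347 counts at day 6, against 0, 0 and 0 at day 0. Nearly all Notch1-/- counts thus came from library 3, which still lay below the lowest WT day 6 library, and the WT libraries differed 8.24-fold among themselves. In WT cells Hbb-bh1 was at least 6491-fold higher at day 6 than at day 0, with 3 counts over the group taken for the zeros (adjusted p = 0.00157, edgeR). At day 6 the Notch1-/- level was 0.0225 times the WT level (exact counting interval 0.0205 to 0.0248, which covers counting error only). With libraries 1 and 2 alone it was 8.00e-05 times the WT level, from 1 count. The edgeR difference at day 6 was -5.56 (SE 1.57, adjusted p = 0.0233). This call was lost without WT library 1 (-4.78, adjusted p = 0.0764), without WT library 2 (-5.60, adjusted p = 0.0510) and with DESeq2 (adjusted p = 0.109). The gene reached the filter's level in 3 WT and 1 Notch1-/- day 6 libraries and in 0 day 0 libraries. The direction of its calls was thus set by the filter in part, and their p-values are a description.

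Hba-x (XLOC_004406, chr11:32176600-32178115, plus strand) followed the same libraries. It had 2, 0 and 159 counts in Notch1-/- libraries at day 6, against 1, 0 and 0 at day 0. In WT libraries it had 2729, 1442 and 446 counts at day 6, against 1, 0 and 0 at day 0. The WT day 6 libraries had the same order as for Hbb-bh1, and library 3 again held nearly all Notch1-/- counts. The WT day 6 level was 4832 times the day 0 level, which rests on 1 count (exact counting interval 867 to 190910; adjusted p = 0.000527, edgeR). At day 6 the Notch1-/- level was 0.0332 times the WT level, and 0.000644 times with libraries 1 and 2 alone (interval 7.80e-05 to 0.00233). The edgeR difference at day 6 was -4.99 (SE 1.26, adjusted p = 0.0108), and its adjusted p was 0.0554 with DESeq2. Hba-x too passed the filter only with WT day 6 libraries, so the same limit holds for its calls.

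Both globin genes were called higher at day 6 than at day 0 in Notch1-/- cells, with an adjusted p = 0.0375 for Hbb-bh1 and 0.0265 for Hba-x (edgeR). These calls rest on library 3: without it the changes were 0.32 (adjusted p = 0.952) for Hbb-bh1 and 1.17 (adjusted p = 0.701) for Hba-x. They were also lost without any 1 of the Notch1-/- day 0 libraries, where the adjusted p was 0.0605 to 0.117. With the replicate block they were lost too (adjusted p = 0.0902 for Hbb-bh1 and 0.0639 for Hba-x). So they were with limma on log2(FPKM + 1) (adjusted p = 0.420 and 0.504) and on log2(FPKM + 0.1) (adjusted p = 0.276 and 0.264). The ratio of the level of Hbb-bh1 to that of Hba-x in FPKM, which accounts for length, was 2.66 in this library, against 4.05, 3.86 and 2.99 in WT day 6 libraries 1, 2 and 3. The difference of the changes was not called for either gene (adjusted p = 0.719 and 0.672), where the SE was 10.9 and 6.51. On log2(FPKM + 1) it was called for both (adjusted p = 0.0115 and 0.0109, limma), and with DESeq2 for Hbb-bh1 (adjusted p = 2.13e-05). The statement thus depends on the model used for groups at 0.

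**Figure D4:**
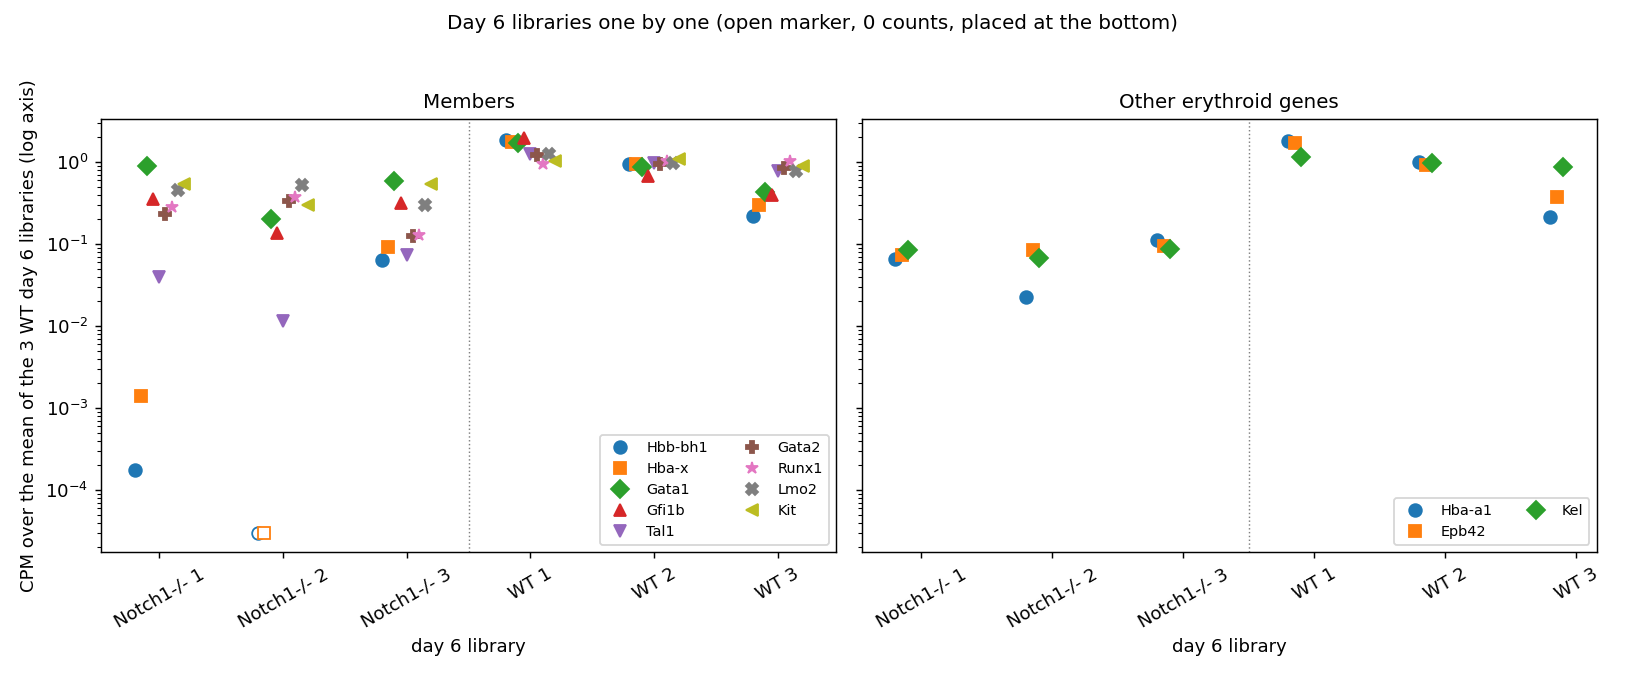
Level of each gene in the 6 day 6 libraries, divided by its mean over the 3 WT libraries (log axis), for 9 members on the left and 3 other red cell genes on the right. Libraries of a group have no order; the globin genes, Gata1, Gfi1b, Epb42 and Hba-a1 spread most between the WT libraries, and both embryonic globin genes lie below every WT library in all 3 Notch1-/- libraries.

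The spread between WT embryoid body libraries was not the same for all members. In CPM library 1 was highest and library 3 lowest for Hbb-bh1, Hba-x, Gata1, Gfi1b, Tal1, Lmo2 and Gata2; for Lmo2 this did not hold in FPKM, where library 2 was lowest. The highest library exceeded the lowest 8.24-fold for Hbb-bh1, 5.93-fold for Hba-x, 4.94-fold for Gfi1b and 4.00-fold for Gata1. For Tal1, Lmo2, Gata2 and Kit this ratio was only 1.63, 1.59, 1.41 and 1.22. The globin genes, Gfi1b and Gata1 thus varied more between these libraries than Tal1, Lmo2, Gata2 and Kit, a difference that was not tested. The summed level of 14 endothelial genes was 579, 443 and 323 CPM in Notch1-/- libraries 1, 2 and 3, and 900, 789 and 679 CPM in WT libraries 1, 2 and 3. The receptor gene Kdr made up 253, 224 and 69.4 CPM of it in Notch1-/- and 318, 256 and 178 CPM in WT libraries. The mean log2 CPM of the same genes, which gives each gene the same weight, was 2.27, 2.07 and 2.59 in Notch1-/- and 4.58, 4.33 and 4.17 in WT libraries, so Notch1-/- library 3 was lowest in the sum and highest in the mean.

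Compared per length in FPKM, with the merged locus of Klf1 left aside, the order of the members within a group changed with the day. In WT embryoid bodies the mean FPKM was highest for Hbb-bh1 (76.9 ± 62.1, SD, n = 3), Hba-x (19.8 ± 14.5) and Kit (18.6 ± 1.39), which overlapped between libraries. Lmo2 (10.3 ± 0.200), Tal1 (5.89 ± 1.29), Runx1 (4.76 ± 0.270) and Gata2 (3.45 ± 0.591) came next; Tal1 and Runx1 overlapped between libraries, while Gata2 lay below both. Gata1 (0.739 ± 0.5) and Gfi1b (0.375 ± 0.343) were lowest and overlapped. In Notch1-/- embryoid bodies Kit (8.19 ± 2.45) and Lmo2 (3.07 ± 0.938) led, ahead of Hbb-bh1 (1.57 ± 2.71), whose mean comes from 1 library, and Runx1 (1.2 ± 0.567). At day 0 Kit led in both genotypes, with 3.38 ± 1.48 FPKM in Notch1-/- and 13.1 ± 5.65 FPKM in WT cells. The place of Lmo2 depended on the unit. In length- and depth-scaled counts it had 0.238 in Notch1-/- embryoid bodies, below Runx1 (1.44) and Hbb-bh1 (1.21). In WT embryoid bodies it had 0.573, below Runx1 (5.67), Gata2 (5.27) and Tal1 (4.33), whose order also differed from that in FPKM.

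Many other regulators of the blood programme were measured. Of 21 tested partner and target regulators, 2 were higher and 9 lower in Notch1-/- than in WT embryoid bodies (median -0.50, against 0.01 over all loci). From day 0, 5 rose and 3 fell in Notch1-/- cells, and 13 rose and 0 fell in WT cells. The changes differed for 11, 2 in the positive and 9 in the negative direction. For this list and those below, 13.7% of all loci were called higher and 14.4% lower between genotypes at day 6. From day 0 the shares were 17.2% and 18.7% in Notch1-/- cells, and 18.4% and 24.7% in WT cells. For the difference of the changes they were 6.36% in the positive and 4.92% in the negative direction. The ETS factor gene Fli1 had 0.522, 0.453 and 0.387 CPM in Notch1-/- and 24.7, 25.4 and 19.4 CPM in WT libraries at day 6 (-5.67, SE 0.52, adjusted p = 1.37e-05, edgeR). Its relative Erg had 0.180, 0.179 and 0.357 CPM in Notch1-/- and 13.1, 11.6 and 9.96 CPM in WT libraries (-5.58, SE 0.46, adjusted p = 6e-06). For both genes every Notch1-/- library was at least 20 times below every WT library. Mecom, a stem cell regulator, differed by -5.11 (SE 0.41), the homeobox gene Meis1 by -3.96 (SE 0.44) and Gfi1, the paralog of Gfi1b, by -3.02 (SE 0.44). Etv2, an ETS factor upstream of Tal1 in blood and endothelium, which was picked after its values were seen, had 7.99, 6.17 and 5.76 CPM in Notch1-/- and 13.9, 15.4 and 9.57 CPM in WT libraries, and was not called (-0.96, SE 0.38, adjusted p = 0.0763).

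Of 15 tested red cell genes and other globins, 2 were higher and 6 lower in Notch1-/- embryoid bodies (median -1.34). From day 0, 2 rose and 0 fell in Notch1-/- cells, and 8 rose and 3 fell in WT cells. The changes differed for 6, 2 positive and 4 negative. Some of these genes passed the low-count filter only with WT day 6 libraries. Hbb-y had 0, 0 and 82 counts in Notch1-/- and 810, 400 and 107 in WT libraries at day 6. Hbb-bs had 0, 0 and 12 against 39, 38 and 20. The directions in this list were thus set by the filter in part, and its tallies are a description. The adult alpha-globin gene Hba-a1 had 0.135, 0.0468 and 0.231 CPM in Notch1-/- and 3.68, 2.08 and 0.445 CPM in WT libraries (-3.90, SE 0.69, adjusted p = 0.00136, edgeR), values that are uncertain because its near-identical copy Hba-a2 may share its reads. WT library 1 was again highest. The membrane protein gene Epb42 differed by -3.56 (SE 0.58) and the blood group gene Kel by -3.64 (SE 0.50).

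**Figure D5:**
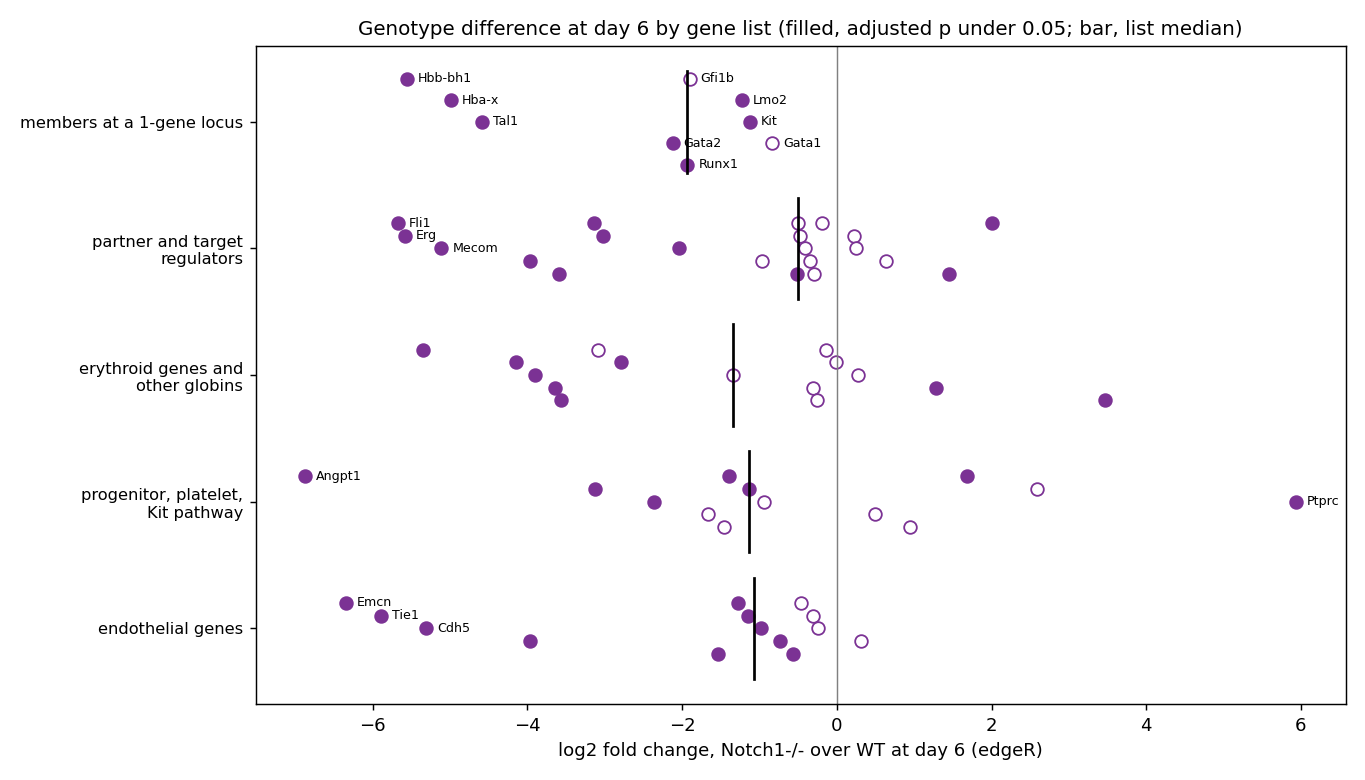
Log2 fold change of Notch1-/- over WT embryoid bodies at day 6 for the 9 members at a locus of their own and the tested genes of 4 lists, with filled points called at an adjusted p under 0.05 and a bar at each median. All called members lie left of 0, while each list other than the endothelial one holds called genes on both sides; for genes with a group at 0 counts, such as Ptprc in WT, the plotted value depends on the fit.

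Of 13 tested progenitor, platelet and Kit pathway genes, 2 were higher and 5 lower in Notch1-/- embryoid bodies (median -1.13). From day 0, 2 rose and 7 fell in Notch1-/- cells, and 3 rose and 6 fell in WT cells; the changes differed for 5, 1 positive and 4 negative. Angpt1, a ligand of the endothelial receptor Tek, had 0.0900, 0.148 and 0.149 CPM in Notch1-/- and 12.8, 14.9 and 18.2 CPM in WT libraries at day 6 (-6.87, SE 0.56, adjusted p = 5.83e-06, edgeR). The receptor gene Flt3 was higher in Notch1-/- cells at day 6, with 0.342, 0.414 and 0.655 CPM against 0.174, 0.161 and 0.103 CPM in WT libraries (1.68, SE 0.39, adjusted p = 0.007). Cd44, an adhesion receptor, differed by -3.13 (SE 0.46), and Csf1r, the receptor of the macrophage lineage, was not called (-1.67, SE 0.70, adjusted p = 0.0948). Ptprc, the leukocyte antigen gene named above, had 0 counts in all 3 WT day 6 libraries and 0.0468 to 0.0893 CPM in Notch1-/- libraries.

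Of 14 tested endothelial genes, 0 were higher and 10 lower in Notch1-/- embryoid bodies (median -1.06). From day 0, 5 rose and 5 fell in Notch1-/- cells, and 10 rose and 3 fell in WT cells; the changes differed for 6, all negative. The endothelial cadherin gene Cdh5 had 1.09, 0.976 and 1.68 CPM in Notch1-/- and 59.9, 49.0 and 39.7 CPM in WT libraries at day 6 (-5.31, SE 0.38, adjusted p = 2.47e-06, edgeR). Tie1, an endothelial receptor, differed by -5.89 (SE 0.68), Sox7 by -3.97 (SE 0.60), Mmrn2 by -1.28 (SE 0.18) and Egfl7 by -0.99 (SE 0.14). Among the lists of other tissues, 4 of 7 mesoderm genes were higher and 0 lower in Notch1-/- embryoid bodies, and 1 of 12 visceral endoderm markers was higher and 7 lower. Of the naive pluripotency and germ cell markers 4 of 13 were higher and 0 lower, of the feeder fibroblast markers 2 of 18 were higher and 10 lower, and of the macrophage markers 1 of 3 was higher and 0 lower. The part of these tissues in the levels of the members was not tested.

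The loci most like Tal1, Gata1 and Kit were sought among 9398 named loci by the root mean square difference of centred log2 CPM over the 12 libraries. For Tal1 the nearest were Zfp711 (0.66), the integrin gene Itga4 (0.67), Hey2, a transcription factor induced by Notch (0.81), and Igsf11 (0.84). Hey2 averaged 2.64 CPM in Notch1-/- day 6, 1.39 CPM in Notch1-/- day 0, 45.3 CPM in WT day 6 and 1.80 CPM in WT day 0 libraries. The locus of Itga4 shares 51.13% of its exon length with another. For Gata1 the nearest were Prelid2 (0.52), Cdc42ep2 (0.58), and the glycolysis genes Pfkp (0.59, with 81.46% shared) and Hk1 (0.60). Red cell genes at a low level, such as Hba-a1, Epb42 and Kel, were left out of this search by the cutoff on the mean level. Their absence among the nearest loci thus says nothing about Gata1. Hk1 averaged 46.3 CPM in Notch1-/- day 6, 138 CPM in Notch1-/- day 0, 80.3 CPM in WT day 6 and 130 CPM in WT day 0 libraries, highest at day 0 like Gata1. For Kit the nearest were Plag1 (0.35), Atp10d (0.38), the ephrin receptor gene Epha4 (0.41) and Fxyd6 (0.43).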

How the data were processed

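Poly(A) RNA of 12 libraries was read in pairs of 100 bases on an Illumina HiSeq2000, per the labels' protocols. Build mm9 and the tools HTSeq 0.5.4p3, DESeq, Cufflinks 2.1.1 and TopHat2 2.0.8 are named in the submitters' processing notes, without their settings; the strand setting of the counting is not given in the sources used here. Raw whole-number counts and length- and depth-normalised FPKM values per locus were deposited by the authors, with the transcript models that define the loci. The counts seem to omit reads on exons of more than 1 locus: overlap of at least 50% of the exon length affects 4677 loci, and 494 loci had 0 counts with a mean FPKM of at least 1. Antisense genes cannot be separated.

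The files hold locus and transcript identifiers without symbols. Loci were linked to GENCODE M21 genes by the lengths of exons with both neighbouring introns (15866 loci, and 37 among near-identical copies) or by introns at the shift of neighbouring links (2042 loci), and no coordinates were converted. A further 1491 loci held several genes and 20603 were not linked. When looked up on a wrong chromosome, 3 loci matched. Names therefore rest on inference.

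Counts were tested with edgeR 4.0.16 (R 4.3.3; TMM, default expression filter, quasi-likelihood, 1 fit of all 12 libraries with 1 mean per group). Alternatives were DESeq2 1.42.0, limma 3.58.1 on log2(FPKM + 1) and log2(FPKM + 0.1), other scalings, no filter, a replicate block, only the groups compared, fewer shared exons, and each library left out. The scripts were tested on simulated counts with known changes. The labels do not say whether replicate numbers pair samples. Between the genotypes at day 0 every same-numbered pair deviated together (correlation 0.398, 0.275 and 0.165). A differently numbered pair, Notch1-/- library 3 and WT library 2, did so too (0.132), so these values do not establish a pairing. The replicate block kept the 1 member call there (Kit). In each of the other 3 comparisons of groups at least 1 of 3 pairs was under 0.1; over all 18 pairs 12 were above it. Over loci with more than a few counts, counting error is small beside the spread between replicates, with a chi-square per degree of freedom of 41.3 to 404. Loci with many counts weigh most in this value, so it does not describe members with few counts, such as Lmo2 at day 0. Intervals are exact at 95% and cover counting error only. The members and gene lists were chosen with earlier results of these data known. The genes named besides the members are Notch1, up to 5 tested genes per list with the smallest p in the difference of the changes (marker lists of other tissues are given as counts), and the 4 loci with the least root mean square difference from Tal1, Gata1 and Kit. Ptprc, Ppbp, Pf4, Adgre1, Kdr and Etv2 fall outside this rule and were chosen after their values were seen. Some genes that the rule names are not reported here.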

Additional observations from a re-analysis of the deposited data

Results flagged for a closer look

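The results below were singled out because the change from day 0 to day 6 differed between the genotypes by a test of that difference itself (edgeR, adjusted over all loci, called under 0.05). Values are the change in Notch1-/- cells minus the change in WT cells on the log2 scale. Among the members these were Tal1 (-3.71, SE 0.71), Gata2 (-2.24, SE 0.43) and Runx1 (-2.28, SE 0.49). Among the regulators they were Erg (-5.27, SE 0.59), Fli1 (-6.03, SE 0.68), Mecom (-4.15, SE 0.51), Meis1 (-4.65, SE 0.58) and Gfi1 (-3.79, SE 0.64). Among red cell genes they included Hba-a1 (-6.37, SE 1.05), Epb42 (-5.48, SE 0.92) and Kel (-2.90, SE 0.75). Among progenitor and Kit pathway genes they were Angpt1 (-7.63, SE 0.70), Cd44 (-2.83, SE 0.61), Csf1r (-3.98, SE 0.99) and Kitl (-1.62, SE 0.41) in the negative and Flt3 (3.16, SE 0.56) in the positive direction. Csf1r had 0.476, 2.87 and 3.63 CPM in Notch1-/- day 0 libraries 1, 2 and 3. Neither its WT change (0.70, adjusted p = 0.430, edgeR) nor its day 6 difference between genotypes was called. Among endothelial genes they were Cdh5 (-6.30, SE 0.51), Sox7 (-5.48, SE 0.81), Tie1 (-5.42, SE 0.84), Mmrn2 (-2.04, SE 0.25) and Egfl7 (-0.98, SE 0.19). The adjusted p ran from 6.58e-05 for Cdh5 to 0.0265 for Kel. Genes other than the members were named for a small p in this same comparison, so these values describe them and do not stand as independent evidence.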

How the results depend on the processing

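The count of called members moved as follows. From day 0 to day 6 in Notch1-/- cells 6 of 9 were called, and 3 with limma on log2(FPKM + 1), on log2(FPKM + 0.1) and with only the groups compared; leaving out 1 library at a time gave 2 to 6. Between genotypes at day 6 the 7 calls became 4 to 8 with 1 library left out. At day 0 the 1 call became 2 with DESeq2, through 1 count of Hbb-bh1. For the difference of the changes the 3 calls became 5 with DESeq2 and 6 with each FPKM setting. Values that changed sign were never called: Lmo2 at day 0 (0.091 with FPKM + 1 and 0.31 with FPKM + 0.1; -0.49 to 0.17 with 1 library left out), Gata2 at day 0 (-0.0087 with FPKM + 1 and -0.017 with FPKM + 0.1; -0.041 to 0.21 with 1 library left out) and Gata1 over the WT days (0.11 without day 6 library 3; -0.87 to 0.11 with 1 library left out). The cause was not tested. No fold between genotypes at day 0 is given for the globin genes, which were at or under 3 counts there. Under upper quartile scaling the median of all loci from day 0 to day 6 was -0.18 in Notch1-/- and -0.29 in WT cells, against -0.02 and -0.12 under TMM.

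With the replicate block 4 members were called over the Notch1-/- days, 6 over the WT days, 8 between genotypes at day 6, 1 at day 0 and 3 in the difference of the changes; the 2 calls lost over the Notch1-/- days are those of the globin genes. A setting that leaves out 1 library keeps 2 in its group, which share the spread of the other groups. Depth limits Gfi1b, Lmo2 and the globin genes at day 0.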
